A study of Mus musculus with 16 samples.

Results

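The chromatin of 9 germline and meiosis genes was followed in 2 cultures of mouse embryonic stem cells (ESCs). The genes, taken as a list of names from 26180 mouse gene symbols, were Ddx4, Dazl, Stk31, Slc25a31, Mael, Stra8, Sycp1, Sycp3 and Hormad1. Every ChIP-sequencing peak that lay within 2500 bp of a start site of these genes, or over the rest of the gene, was read from 6 deposited peak lists. The cells were MycER ESCs, R1 mouse ESCs that stably carry a fusion of Myc with the hormone-binding part of the estrogen receptor, grown without feeder cells on gelatin in medium with serum and vitamin C. LIF-ESCs received LIF at 100 units per ml and no 4-hydroxytamoxifen (OHT), whereas Myc-ESCs received 50 nM OHT, which activates the fusion protein, and no LIF. The fusion protein was thus present in both cultures. The study's methods describe clonal lines of these cells, among them the parental line with an amino acid substitution in Myc, and the labels do not say which line entered the ChIP. H3K4me3, H3K27me3 and Suz12 were each precipitated in 2 libraries per culture, which with 4 input libraries made 16 libraries.

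Each culture and antibody gave 1 peak list without read counts, and whether its libraries were pooled is not stated. Neither depth nor replicate spread could therefore be read from the data, and no difference between the cultures was tested. The score of a peak comes from the p-value of the peak caller on a log scale, starts at 50 in all lists and grows with depth, so a score is read against other genes of the same list, and a ratio of scores between the cultures against the ratios of other genes. The H3K27me3 lists were the most unequal, with 3120 peaks for LIF-ESCs against 16717 for Myc-ESCs. The ESC markers Pou5f1, Nanog, Sox2, Zfp42, Esrrb and Klf4 all had H3K4me3 at the start site in both cultures (61.0% of all symbols). Esrrb had Suz12 in both cultures (10.8% of all symbols). In Myc-ESCs alone, Klf4 had Suz12 (3.82%) and Esrrb had H3K27me3 (7.65%). Pou5f1, Nanog, Sox2 and Zfp42 had neither in either culture.

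Germline genes are held silent in most somatic cells and largely so in ESCs. Many of them start in a CpG-rich promoter that is a target of DNA methylation, and in ESCs a variant Polycomb complex that contains Mga, Max, E2f6, L3mbtl2 and Pcgf6 binds such promoters through E-box and E2F-type motifs. Mga pairs with Max, as Myc does, and both pairs recognise the E-box CACGTG. H3K4me3 marks the start sites of active and of poised genes, while H3K27me3 is laid down by Polycomb repressive complex 2 (PRC2), of which Suz12 is a core subunit. Genes that carry both marks at the promoter are called bivalent.

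Most of the 9 promoters held these motifs. An E-box, whose sequence reads the same on both strands, was found in 7 of the 9 promoter windows of 300 bases. At least 1 was held by 7.24% of the 27025 genes that have a window of the same length. Of the 16889 symbols with H3K4me3 in either culture, 12972 had such a window, and 10.1% of these held an E-box. All shares and medians of promoter sequence given here rest on genes with such a window. The windows of Sycp3 and Hormad1 held 2 E-boxes each, and 0.625% of all genes had 2 or more. The E2F-type motif TCCCGC was found, on either strand, in 6 of the 9 windows, in 20.0% of all genes and in 35.9% of genes with H3K4me3. Both motifs stood together in Ddx4, Slc25a31, Mael, Sycp1, Sycp3 and Hormad1, as in 2.05% of all genes and 3.87% of those with H3K4me3. Dazl and Stra8 held neither. Because the genes came as a list of known germline genes, these counts describe the list and were not tested. The wider lists of germline and meiosis genes described below held 74 other genes, of which 55 had such a window. An E-box was found in 21.8% of these 55 genes, the E2F-type motif in 36.4% and both in 9.09%. The 150 bases before the start site are given for the 6 genes in which an E-box lay within them, followed by Stra8, which held no match. Sequences are from RefSeq (GRCm38.p6) and read 5′ to 3′ along the gene, with the E-box CACGTG and the E2F-type motif TCCCGC, or its reverse complement GCGGGA, in capitals.
Ddx4 chr13:112652311-112652460 (- strand): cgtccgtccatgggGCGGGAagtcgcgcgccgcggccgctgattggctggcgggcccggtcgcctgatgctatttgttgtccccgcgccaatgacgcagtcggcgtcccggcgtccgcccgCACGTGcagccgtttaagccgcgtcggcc
Stk31 chr6:49395389-49395538 (+ strand): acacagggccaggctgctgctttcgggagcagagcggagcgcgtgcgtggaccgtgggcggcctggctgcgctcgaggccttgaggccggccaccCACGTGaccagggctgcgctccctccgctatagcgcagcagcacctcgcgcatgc
Slc25a31 chr3:40708721-40708870 (+ strand): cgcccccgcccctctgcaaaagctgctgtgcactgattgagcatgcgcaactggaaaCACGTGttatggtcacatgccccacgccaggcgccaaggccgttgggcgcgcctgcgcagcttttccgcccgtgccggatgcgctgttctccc
Sycp1 chr3:102936101-102936250 (- strand): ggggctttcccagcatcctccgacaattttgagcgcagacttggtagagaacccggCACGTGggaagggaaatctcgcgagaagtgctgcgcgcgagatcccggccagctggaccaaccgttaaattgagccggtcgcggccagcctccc
Sycp3 chr10:88459437-88459586 (+ strand): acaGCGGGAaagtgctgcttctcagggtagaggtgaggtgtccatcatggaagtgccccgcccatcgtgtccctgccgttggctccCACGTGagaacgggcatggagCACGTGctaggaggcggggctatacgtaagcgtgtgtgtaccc
Hormad1 chr3:95559527-95559676 (+ strand): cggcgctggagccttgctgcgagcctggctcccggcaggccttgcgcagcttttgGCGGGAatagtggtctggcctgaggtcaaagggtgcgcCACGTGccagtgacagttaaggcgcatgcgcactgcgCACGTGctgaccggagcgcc
Stra8 chr6:34920798-34920947 (+ strand): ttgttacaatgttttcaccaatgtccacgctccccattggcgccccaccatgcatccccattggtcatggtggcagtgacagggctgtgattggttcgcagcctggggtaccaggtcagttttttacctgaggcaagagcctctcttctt
The E-box of Ddx4 began 29 bases before the start site, that of Stk31 55, that of Slc25a31 93 and that of Sycp1 94 bases before it. In Sycp3 the E-boxes began 64 and 43 bases before the start site and in Hormad1 57 and 20 bases before it. The remaining E-box, in Mael, began 223 bases before the start site. A match in sequence is not a bound site, and binding of Myc or Mga was not analysed here.

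The promoters of 8 of the 9 genes were richer in CpG than most. CpG observed over expected was 0.978 in Ddx4, at or above that of 92.7% of all genes, followed by 0.908 in Stk31, 0.874 in Sycp1 and 0.826 in Slc25a31. Values of 0.795, 0.78, 0.713 and 0.666 were found in Dazl, Mael, Hormad1 and Sycp3, against a median of 0.389 over all genes and 0.745 over genes with H3K4me3. Stra8 stood apart with 0.43 and 10 CpG in 300 bases, where Ddx4 had 38. The genes without H3K4me3 were not the CpG-poor members, as Dazl and Slc25a31 had values above the median of genes with the mark.

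**Figure D1:**
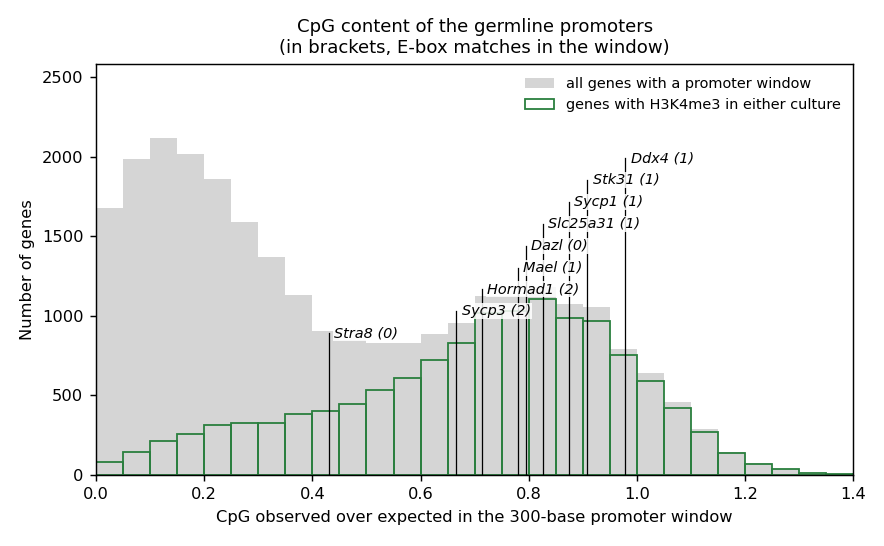
Number of genes by CpG observed over expected in the 300-base promoter window, for all genes (grey bars) and for genes with H3K4me3 in either culture (green outline). Vertical lines mark the 9 germline and meiosis genes with their number of E-boxes in brackets. All but Stra8 (0.43) lie at 0.666 or above, on the CpG-rich side of the distribution.

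H3K4me3 was called at the start sites of 5 of the 9 genes in each culture, and 4 of the calls were found in 1 culture only. In LIF-ESCs the marked genes were Ddx4, Stk31, Stra8, Sycp3 and Hormad1, 5 of 9 beside 62.2% of all gene symbols. In Myc-ESCs they were Ddx4, Stk31, Mael, Sycp1 and Sycp3, 5 of 9 beside 63.3% of all symbols. Only Ddx4, Stk31 and Sycp3 carried the mark in both cultures, as did 61.0% of all symbols. Mael and Sycp1 were called in Myc-ESCs only, which held for 2.35% of all symbols, and Stra8 and Hormad1 in LIF-ESCs only, which held for 1.21%. Dazl and Slc25a31 had no peak of any of the 6 lists, as 34.7% of all symbols.

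**Figure D2:**
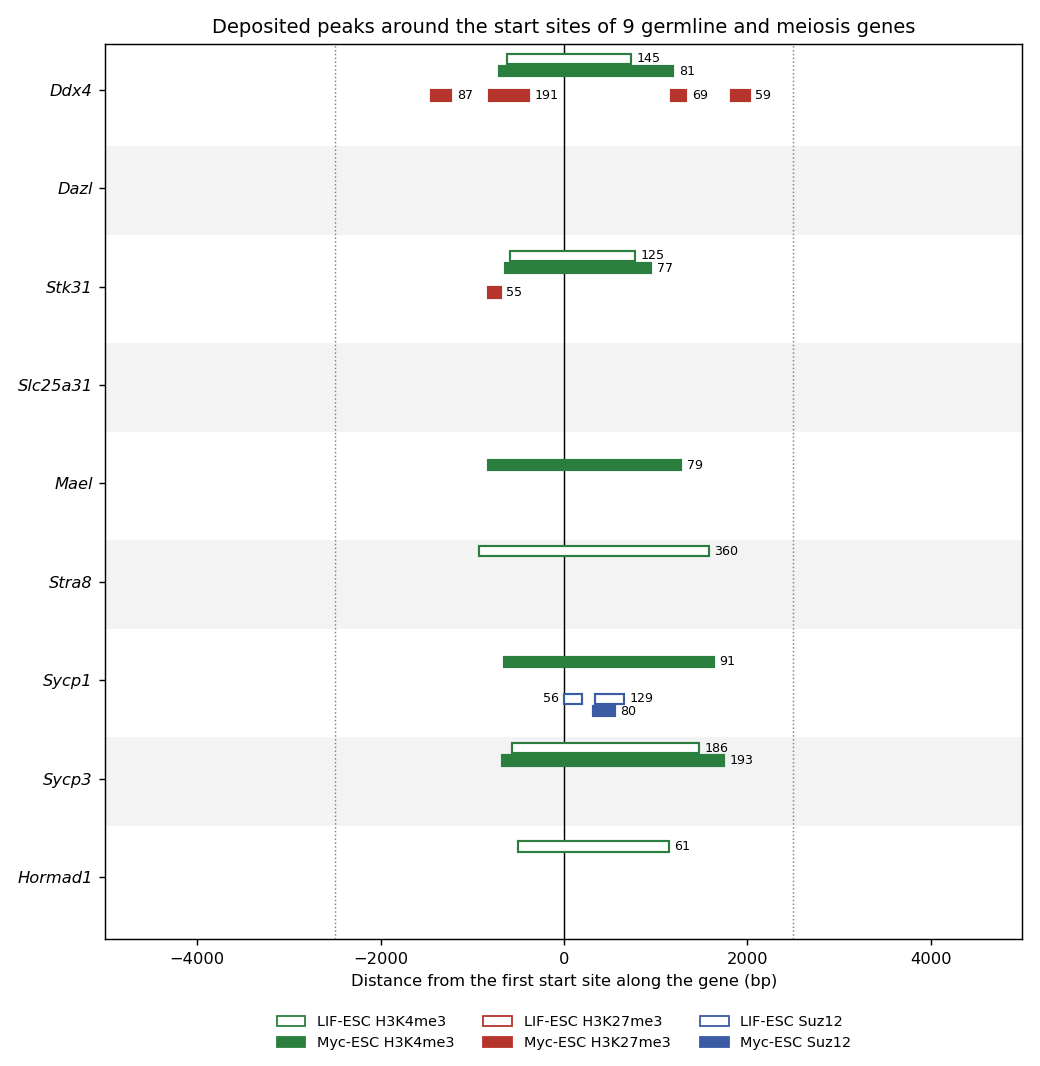
Deposited peaks around the start sites of the 9 genes, by distance from the first start site along the gene (bp, to 5000 each side). Open bars are LIF-ESC and filled bars Myc-ESC peaks of H3K4me3 (green), H3K27me3 (red) and Suz12 (blue), numbers are the peak scores rounded, and dotted lines mark the 2500 bp window. H3K4me3 spans the start site wherever it is present, and H3K27me3 appears beside it in Ddx4 and Stk31 in Myc-ESCs only.

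These H3K4me3 peaks ranked low among those of other genes. Their scores lay between 60.53 and 360.47 in LIF-ESCs and between 76.62 and 193.46 in Myc-ESCs, whereas the median gene with a peak scored 2010.72 and 1655.675. All of them stood below the first quartile of their list, which was 677.66 in LIF-ESCs and 642.965 in Myc-ESCs. In LIF-ESCs the order from the highest score was Stra8, Sycp3, Ddx4, Stk31 and Hormad1, and in Myc-ESCs it was Sycp3, Sycp1, Ddx4, Mael and Stk31. Without a replicate, neighbours in these orders cannot be said to differ. Each peak covered the start site of its gene, and no start site of another gene lay in any of the 9 windows.

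**Figure D3:**
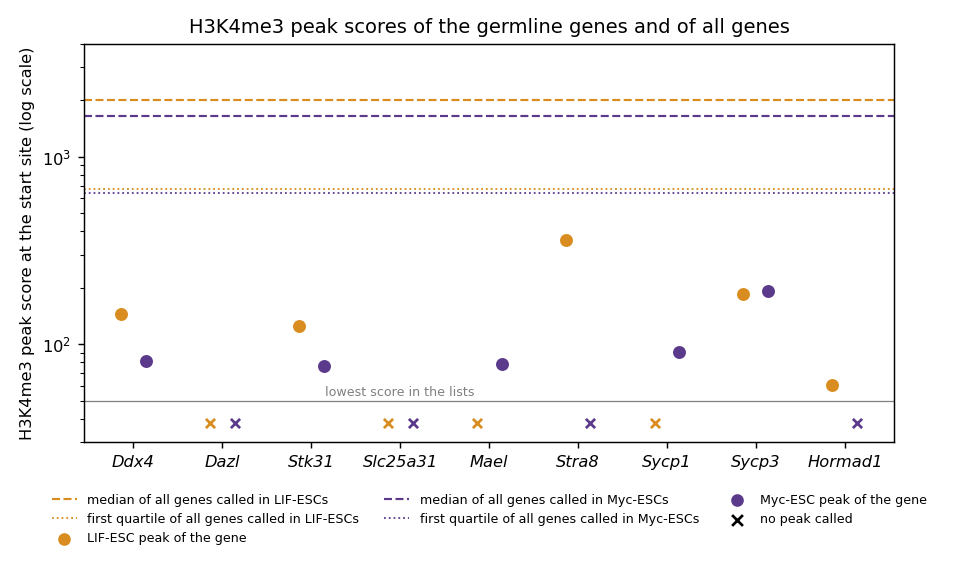
Score of the H3K4me3 peak at the start site (log scale) of each germline and meiosis gene in LIF-ESCs (orange) and Myc-ESCs (purple). Crosses mark genes without a peak, and dashed and dotted lines give the median and the first quartile of all genes called in each culture. Every called peak lies below the first quartile of its own culture (677.66 and 642.965).

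Calls in 1 culture only were common at such low scores. Of all 16889 genes with H3K4me3 in either culture, 5.51% had it in 1 culture only. Among the 2299 genes whose higher score lay within the range of the 7 marked germline genes (60.53 to 360.47), a class chosen after seeing the data, the share was 30.4%. It was made up of 20.7% with the mark in Myc-ESCs alone and 9.61% in LIF-ESCs alone. The germline genes stood at 4 of 7. Below a score of 100, where Mael, Sycp1 and Hormad1 lay, 77.3% of 551 genes were called in 1 culture only, and from 200 to below 400, where Stra8 lay, 11.3% of 1273 genes were. When peaks under a score of 100 were left out, Mael, Sycp1 and Hormad1 had no H3K4me3 in either culture, Ddx4 and Stk31 had it in LIF-ESCs, Stra8 as before and Sycp3 in both cultures.

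Ddx4 and Stk31 shared the same calls in all 6 lists. Ddx4 encodes the germ cell RNA helicase Vasa, and Stk31 a Tudor domain protein of the testis with a kinase-like domain. Ddx4 (gene ID 13206) has 22 exons and is found on chromosome 13, minus strand, at 112598333 to 112652310 (GRCm38). Its H3K4me3 peak was 1356 bp long in LIF-ESCs, with a score of 144.83, and 1906 bp long in Myc-ESCs, with a score of 81.26. The Myc-ESC peak held the whole LIF-ESC peak and reached 90 bp further upstream and 460 bp further into the gene. Thus the peak was longer and its score lower in Myc-ESCs. The ratio of the Myc-ESC to the LIF-ESC score, 0.561, was at or above that of 6.52% of the 15958 genes called in both cultures.

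In Myc-ESCs the H3K4me3 peak of Ddx4 was flanked by 4 H3K27me3 peaks, where LIF-ESCs had none. The strongest had a score of 191.45 and a length of 428 bp, from 812 to 385 bp upstream of the start site, and shared 328 bp with the edge of the H3K4me3 peak. A further upstream peak of 225 bp had a score of 86.68. Inside intron 2 lay peaks of 170 and 208 bp with scores of 68.94 and 58.72. None of them covered the start site, and together they filled 1031 bp of the window. No Suz12 peak lay in the window in either culture, and the nearest was 333.9 kb away in LIF-ESCs and 74.0 kb away in Myc-ESCs. The nearest LIF-ESC H3K27me3 peak was 344.9 kb away.

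The H3K27me3 peaks upstream of Ddx4 were poorer in CpG than its H3K4me3 peaks. The strongest H3K27me3 peak held 4 CpG in its 428 bases, with an observed over expected ratio of 0.163, and the upstream peak of 225 bases held 0. The H3K27me3 peaks of 170 and 208 bases in intron 2 held 2 CpG each, with ratios of 0.556 and 0.603. The H3K4me3 peaks had ratios of 0.692 in LIF-ESCs and 0.66 in Myc-ESCs. To set beside the Ddx4 promoter printed above, 160 bases from the middle of the strongest H3K27me3 peak are shown (RefSeq genome, GRCm38.p6, read along the gene), with the 1 CpG they hold in capitals.
Ddx4 H3K27me3 peak chr13:112652829-112652988 (- strand): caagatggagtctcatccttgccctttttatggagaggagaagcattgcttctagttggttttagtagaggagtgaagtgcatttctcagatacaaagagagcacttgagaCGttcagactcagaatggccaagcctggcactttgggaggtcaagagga

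Stk31 (gene ID 77485) has 24 exons and is found on chromosome 6, plus strand, at 49395539 to 49469506. Its H3K4me3 peak was 1360 bp long with a score of 124.57 in LIF-ESCs and 1596 bp long with a score of 76.62 in Myc-ESCs. As at Ddx4, the Myc-ESC peak held all of the LIF-ESC peak, and the ratio of the scores was 0.615. A single H3K27me3 peak of 140 bp with a score of 55.49 was called in Myc-ESCs, from 830 to 691 bp upstream and 45 bases short of the H3K4me3 peak. The peak was lost with a score limit of 100 and when the H3K27me3 lists were brought to equal length, whereas the strongest peak of Ddx4 remained in both cases. The score of the Stk31 peak was close to the lowest in the list, and at or above that of 11.6% of the genes with H3K27me3 in Myc-ESCs. No Suz12 peak lay within 425.4 kb in LIF-ESCs or 158.8 kb in Myc-ESCs.

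Sycp3, the other gene with H3K4me3 in both cultures, encodes a component of the axis of meiotic chromosomes. The gene (ID 20962, 9 exons) spans chromosome 10, plus strand, 88459587 to 88473236. The peak was 2039 bp long with a score of 186.14 in LIF-ESCs and 2423 bp long with a score of 193.46 in Myc-ESCs, a ratio of 1.039. It had neither H3K27me3 nor Suz12, and the nearest peaks of Suz12 were 425.9 and 425.7 kb away. Among 1324 genes with a LIF-ESC score of at most 200 and a peak in both cultures, the median ratio was 1.758, the first quartile was 1.124 and 19.6% had a ratio below 1. The ratios of Ddx4, Stk31 and Sycp3 were all below this first quartile. However, the class was chosen by a low LIF-ESC score, the denominator of the ratio, so its ratios lean upward. Among all 15958 genes called in both cultures the median ratio was 1.0. There the ratio of Sycp3 was at or above that of 73.7% of genes and the ratio of Stk31 at or above that of 9.07%. The third quartile of the H3K4me3 scores was 3100.0 in both lists, a value that many strong peaks share. Genes with this score in both cultures have a ratio of 1.0, which bears on this median and on the places given. The peaks of all 3 genes were longer in Myc-ESCs. So were those of most of the 1324 genes with a low LIF-ESC score, where the median ratio of lengths was 1.336 and 8.76% were below 1. Over all 15958 genes the median ratio of lengths was 1.042 and 38.1% were below 1. The length ratios of Ddx4, Stk31 and Sycp3 were there at or above those of 91.3%, 76.3% and 78.1% of genes.

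Ddx4 and Stk31 were the 2 of the 9 genes with H3K27me3 in Myc-ESCs, a call made at 10.7% of all symbols in that culture and, as here, at 7.65% in that culture alone. In LIF-ESCs 0 of the 9 genes had the mark, beside 3.82% of all symbols, so that 0 had it in both cultures (3.09%) or in LIF-ESCs alone (0.733%). With H3K27me3 lists of equal length the Myc-ESC call was left at Ddx4, and 1.75% of all symbols had it in Myc-ESCs alone. Of the 2003 genes with this change, 1696 had a Suz12 peak at the start site in either culture and 307 (15.3%), among them Ddx4 and Stk31, had none. In this class of 307 genes Ddx4 had the highest H3K27me3 score and the third largest covered length. Its 4 peaks were the most in the class, a number that Efcab2, Rad21l, Cyp2r1 and Gm51573 shared. The median of the class was a score of 60.53 and 151 covered bases, near the values of Stk31. In the whole class of 2003 genes Ddx4 was number 90 by score and 135 by covered bases. With H3K4me3 in both cultures added as a condition, 214 genes (0.817% of all symbols) had the calls of Ddx4 and Stk31. Prdm9, a histone methyltransferase that places meiotic recombination, and Smc1b, a meiotic cohesin subunit, were the other genes of the wider germline lists with these calls, with H3K27me3 scores of 53.96 and 53.75.

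**Figure D4:**
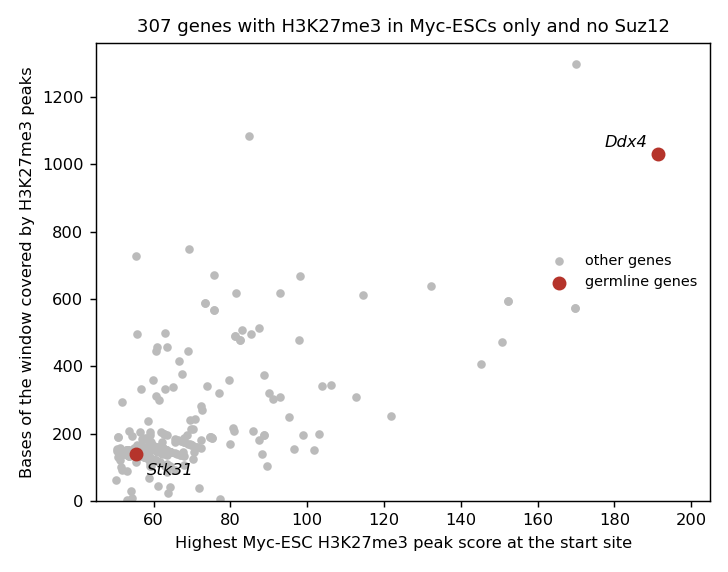
The 307 genes whose start site had H3K27me3 in Myc-ESCs alone and no Suz12 peak in either culture, by the highest H3K27me3 score (horizontal) and the bases of the start-site window covered by H3K27me3 (vertical). Ddx4 has the highest score (191.45) and 1031 covered bases, and Stk31 (55.49 and 140 bases) lies within the mass of the genes.

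Mael encodes a component of the nuage, the germ cell granule where piRNAs act on transposons. The gene (ID 98558, 12 exons) spans chromosome 1, minus strand, 166201385 to 166238744. In Myc-ESCs an H3K4me3 peak of 2107 bp with a score of 78.73 reached from 827 bp upstream to 1279 bp downstream of the start site, and in LIF-ESCs the nearest H3K4me3 peak was 43.4 kb away. No H3K27me3 or Suz12 peak lay in the window. Of the 614 genes with H3K4me3 in Myc-ESCs only, whose median score was 108.08, Mael was number 422. The calls of Mael in the 6 lists were those of 396 genes (1.51%), among them Iho1, Nobox and Sohlh2 of the wider lists.

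Sycp1, which encodes the transverse filament of the synaptonemal complex, was the only one of the 9 genes with Suz12. It has 33 exons on chromosome 3, minus strand, 102818499 to 102936100 (gene ID 20957). Suz12 was called in both cultures, as at 10.8% of all symbols (12.1% in LIF-ESCs, 14.6% in Myc-ESCs). In LIF-ESCs there were peaks of 308 and 191 bp with scores of 128.65 and 56.25, and in Myc-ESCs a peak of 242 bp with a score of 79.64. A score limit of 100 left the longer LIF-ESC peak alone. Suz12 lay from 3 to 651 bp downstream of the start site, over exons 1 and 2 and introns 1 and 2. No H3K27me3 was called there in either culture. H3K4me3 was called in Myc-ESCs only, as a peak of 2292 bp with a score of 90.89 that contained the whole Suz12 peak of that culture. The highest Suz12 score of Sycp1 was at or above that of 39.3% of the genes with Suz12 in LIF-ESCs and 17.3% in Myc-ESCs. Only 32 genes (0.122%) had the calls of Sycp1 in the 6 lists, and no other gene of the wider germline lists was among them.

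Stra8 had the strongest H3K4me3 peak of the 9 genes and had it in LIF-ESCs only. Stra8 is induced by retinoic acid and is required for entry into meiosis. It has 9 exons on chromosome 6, plus strand, 34920948 to 34939344 (gene ID 20899). The LIF-ESC peak was 2503 bp long with a score of 360.47, from 921 bp upstream to 1581 bp downstream of the start site, and the nearest Myc-ESC peak of H3K4me3 lay 9.1 kb away. Of the 317 genes with H3K4me3 in LIF-ESCs alone, whose median score was 105.92, Stra8 was number 55. Its promoter was the poorest in CpG of the 9. It had no H3K27me3 or Suz12 peak in either culture.

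Hormad1 encodes a protein of the meiotic chromosome axis and has 15 exons on chromosome 3, plus strand, 95559677 to 95587863 (gene ID 67981). Its LIF-ESC H3K4me3 peak was 1645 bp long, but its score of 60.53 was near the lowest of the list and number 275 among those 317 genes. At or below this score were 0.811% of the genes with H3K4me3 in LIF-ESCs. The calls of Hormad1 and Stra8 were those of 285 genes (1.09%), among them Hormad2, Majin and Nanos3. Hormad2, the paralog of Hormad1, thus had the same calls, with a LIF-ESC score of 60.78.

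Dazl and Slc25a31 had no peak in the window or over the gene. Dazl encodes an RNA-binding translational regulator of germ cells and has 10 exons on chromosome 17, minus strand, 50279393 to 50293620 (gene ID 13164). The nearest H3K4me3 peaks were 102.3 kb away in LIF-ESCs and 102.0 kb in Myc-ESCs. Slc25a31 encodes the ADP/ATP carrier of the male germ line and has 6 exons on chromosome 3, plus strand, 40708871 to 40726094 (gene ID 73333). Its nearest H3K4me3 peaks were 35.0 and 34.8 kb away. In the wider lists, 12 further genes had no peak of any list at the start site, among them the piRNA-binding Piwil1, Piwil2 and Piwil4 and the oocyte or spermatogonial factors Figla and Sohlh1. Since the lists hold peaks above a threshold only, a lower level of a mark at these genes could not be seen.

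Beyond the start-site windows, peaks were found over the bodies of Sycp1 and Hormad1 only. H3K4me3 lay there in 2 of the 9 genes in each culture, beside 21.2% of all symbols for LIF-ESCs and 18.8% for Myc-ESCs. In Sycp1 both cultures had H3K4me3 in intron 22, with scores of 138.25 and 165.98, and in intron 30, with scores of 137.61 in LIF-ESCs and 306.11 in Myc-ESCs. These intronic peaks were 82.5 to 93.3% repeat-masked sequence, whereas the start-site peak of Sycp1 was 10.1% repeat-masked. An H3K27me3 peak of 135 bp with a score of 67.16 in intron 30, in Myc-ESCs only, was 100% repeat-masked. Body peaks of H3K27me3 were found in 5.28% of all symbols in that culture and in 1.88% in LIF-ESCs. In Hormad1 a strong H3K4me3 peak, with scores of 1623.48 and 1542.33, overlapped the last exon but covered the start site of the neighbouring gene Golph3l. Suz12 was called over no body beyond the window, beside 3.2% and 3.66% of all symbols.

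In the wider lists of germline and meiosis genes, written by role from general knowledge, a similar mixture was found. Without the 9 genes they held 74 genes, of which H3K4me3 was called at 49 in LIF-ESCs (66.2%, beside 62.2% of all symbols) and at 53 in Myc-ESCs (71.6%, beside 63.3%). Calls in Myc-ESCs only were found for 7 of them (9.46%, beside 2.35% of all symbols) and in LIF-ESCs only in 3 (4.05%, beside 1.21%). Those in Myc-ESCs only were Sohlh2, Nobox, Mov10l1, Tdrd1, Iho1, Spo11 and Rnf212. Their own peaks had scores from 53.32 in Nobox to 142.19 in Spo11, the nuclease that makes meiotic breaks, and the Spo11 peak did not cover its start site. A peak that covered the start site of Ccdc186 also reached the window of Tdrd1, whose own peak scored 74.54. Those in LIF-ESCs only were Hormad2, Majin with a score of 88.17, and Nanos3, where the upstream peak of 18116 bp did not cover the start site.

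LIF-ESCs had H3K27me3 at 11 of the 74 genes (14.9%, beside 3.82% of all symbols) and Myc-ESCs at 24 (32.4%, beside 10.7%), and 14 had it in Myc-ESCs only (18.9%, beside 7.65%). With H3K27me3 lists of equal length, 3 of the 74 genes (Prdm14, Rnf212 and Tex12) had it in Myc-ESCs alone, beside 1.75% of all symbols. The mark was then in LIF-ESCs alone at 4 of the 74, beside 2.04%. Of the 14 genes, Prdm14 had the highest score with 120.71, followed by Rnf212 with 110.0, Tex12 of the synaptonemal complex with 106.83, Sycp2 with 97.85, Spata22 with 92.99 and the meiotic cohesin Rad21l with 81.39. The highest Myc-ESC scores of H3K27me3 stood at genes with the mark in both cultures. They were 360.71 at Bhmg1 (Meiosin), the partner of Stra8 in meiotic entry, 242.28 at Tdrd5, 174.96 at Meioc, 160.79 at Tdrd7, 153.44 at Tfap2c, 151.62 at Mei1 and 130.28 at Tdrkh. In LIF-ESCs these genes had scores from 57.36 at Tdrkh to 180.96 at Bhmg1. Henmt1, which methylates piRNA ends, had 57.13 and 89.0. Sycp2, Spata22 and Rad21l carried H3K27me3 without H3K4me3 or Suz12 in either culture. LIF-ESCs had Suz12 at 13 of the 74 genes (17.6%, beside 12.1% of all symbols) and Myc-ESCs at 17 (23.0%, beside 14.6%). It was called in Myc-ESCs alone at 6 genes (8.11%, beside 3.82% of all symbols) and in LIF-ESCs alone at 2 (2.7%, beside 1.28%).

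In the wider lists, the highest Suz12 scores in Myc-ESCs stood at Tfap2c, Prdm14, Zbtb16 and Tdrd5. Tfap2c, Prdm14 and Zbtb16 encode transcriptional regulators of germ cells, whereas the regulators Figla, Sohlh1, Sohlh2 and Nobox had no Suz12 peak. Tfap2c had 3100 in both cultures, Prdm14 431.1 in LIF-ESCs against 2778.4 in Myc-ESCs, and Zbtb16 822.05 against 1713.59. The score of 3100 recurs among the strongest peaks of the lists, so equal strength cannot be read from it. Over all genes with Suz12 the median of the highest score was 196.28 in LIF-ESCs and 385.82 in Myc-ESCs. Scores were thus higher in the Myc-ESC list as a whole, and ratios of Suz12 scores were not set against those of other genes. Tdrd5 and Tdrd6, Tudor proteins of the piRNA pathway, had Suz12 in both cultures, with 1712.56 and 847.64 in Myc-ESCs. Meioc had 235.08 in LIF-ESCs and 890.59 in Myc-ESCs. Lower Myc-ESC scores were found at Mei1 (279.73), Tdrd7 (233.22), Gm960 (Top6bl, 171.59), Kit (160.27), Prdm1 (155.08) and Dppa3 (107.77), of which Gm960 and Kit had no Suz12 in LIF-ESCs. The LIF-ESC scores of the others were 215.42 at Mei1, 113.94 at Tdrd7, 149.36 at Prdm1 and 422.41 at Dppa3. Thus Dppa3 had the higher score in LIF-ESCs. For comparison, Sycp1 had 128.65 and 79.64.

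**Figure D5:**
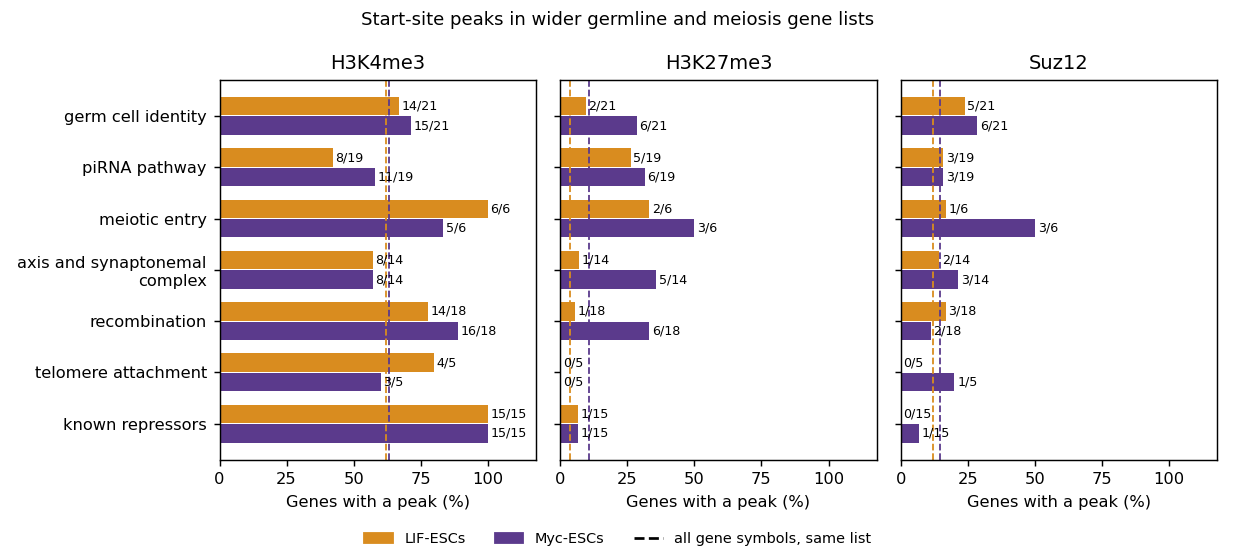
Share of genes with a start-site peak (%) in each role list, the 9 genes included, for H3K4me3, H3K27me3 and Suz12 in LIF-ESCs (orange) and Myc-ESCs (purple). Numbers are marked genes of all genes in the list, and dashed lines give the share of all gene symbols in the same culture. The axis and synaptonemal complex list had H3K27me3 at 1 of 14 genes in LIF-ESCs and 5 of 14 in Myc-ESCs.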

How the data were processed

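ChIP-sequencing reads were aligned by the authors to GRCm38 with Bowtie2 2.2.3, and peaks were called with MACS 1.4.2 at default parameters, according to the study's methods and the submitters' processing notes. The authors deposited, for each culture and antibody, the position of every peak and a score, which is derived from the p-value of the peak. Read counts per library were not analysed here, so the depth per sample is unknown. Repetitive sequence is affected by the use of uniquely mapped reads.

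A gene was called marked when a peak overlapped, by at least 1 bp, the 2500 bp on either side of a start site of its curated RefSeq transcripts (45756 transcripts, 26180 symbols, 21 chromosomes). Coordinates count from 1. Positions, covered bases and the highest score were read with Python 3.11.15, pandas 2.3.3 and numpy 2.4.6, sequences with pysam, and figures were drawn with matplotlib 3.10.9. The interval code was tested on simulated data against a plain double loop, and 0 of 120000 comparisons differed. All 9 genes had a promoter window in RefSeq. The peak lists of each antibody were compared with the share of all symbols that had the same call, and no test was run.

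The 9 genes and the wider lists were chosen with earlier results of these data known. Named from the wider lists were genes with a differing H3K4me3 call, the 20 genes with the highest Suz12 or H3K27me3 score in either culture, and genes with the same calls as one of the 9. All 83 names of the wider lists matched, 4 through a synonym. The settings varied were the score (at least 100), lists of equal length, windows of 1000 and 5000 bp, an overlap of 50% of the peak, all annotated start sites and, chosen after seeing the data, genes of the same score range as background.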

Additional observations from a re-analysis of the deposited data

How the results depend on the processing

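Windows of 1000 and 5000 bp, the overlap of 50% of the peak and the use of all annotated start sites moved none of 96 counts by over 1.5 times. A score of at least 100 moved 20 of 36 values. At that limit 1 of the 9 genes kept H3K4me3 in Myc-ESCs (Sycp3, 2423 covered bases), 0 had it in Myc-ESCs only, 1 had H3K27me3 in Myc-ESCs, again in that culture only (Ddx4, 428 bases), 0 had Suz12 in Myc-ESCs (0 bases) and 1 had it in LIF-ESCs only (Sycp1, 308 bases). Of all symbols at that limit, 2.63% had H3K4me3 in Myc-ESCs only and 0.649% had Suz12 in LIF-ESCs only. H3K27me3 was found in Myc-ESCs only at 3.34% of them and in LIF-ESCs only at 0.0688%. Of the 83 genes of the wider lists, the 9 included, 2 had H3K4me3 in Myc-ESCs only, 1 had H3K27me3 in LIF-ESCs, 11 had it in Myc-ESCs, 10 of which without it in LIF-ESCs, and 0 had it in LIF-ESCs only. Those with H3K4me3 in Myc-ESCs only were Spo11 and Tdrd1, and the peaks left there did not cover their own start sites. Among the 83 genes, Suz12 was called in Myc-ESCs alone at 2 (beside 3.7% of all symbols) and in LIF-ESCs alone at 1 (beside 0.649%). Over gene bodies the score limit left H3K4me3 in Myc-ESCs at 3 of the 9 genes, H3K27me3 at 0 and Suz12 at 0.

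With lists of equal length, H3K4me3 in LIF-ESCs only was left at 1 of the 9 genes (Stra8, without Hormad1) and at 3 of the 83, and H3K27me3 in Myc-ESCs, and in Myc-ESCs only, at 1 (Ddx4, 428 bases). Of the 83 genes H3K27me3 was then called at 11 in Myc-ESCs, at 4 in that culture alone and at 4 in LIF-ESCs alone. Of all symbols, 1.04% then had H3K4me3 in LIF-ESCs only, 1.75% had H3K27me3 in Myc-ESCs only and 2.04% had it in LIF-ESCs only. Over gene bodies 0 of the 9 genes had H3K27me3. Without the start-site window, bodies had H3K4me3 at 2 genes in each culture, H3K27me3 in Myc-ESCs at 1 and Suz12 at 0. The share of background genes with H3K4me3 in 1 culture only was 5.51%, and 30.4% in the score range of the 9 genes. At the start site, the strongest of the 4 H3K27me3 peaks of Ddx4 was kept at a score of at least 100 and with lists of equal length, and the peak of Stk31 was not. No paired analysis was possible because there is 1 list for each culture and antibody and no column carries a replicate number, and for the same reason no replicate could be left out.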

Other observations

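H3K4me3 was also read at the genes of known repressors of germline promoters in ESCs. All 15 of the genes on this list, among them Mga, Max, L3mbtl2, Pcgf6, Dnmt1, Setdb1 and Kdm5c, had H3K4me3 at the start site in both cultures, as did 61.0% of all gene symbols. E2f6 was the exception in its other marks. It carried 3 H3K27me3 peaks in each culture, the highest scoring 105.37 (LIF-ESCs) and 77.41 (Myc-ESCs), and a Suz12 peak with a score of 61.95 in Myc-ESCs only. Its H3K4me3 score was 272.11 for LIF-ESCs and 728.59 for Myc-ESCs. None of the other 14 genes had H3K27me3 or Suz12 in either culture. Most genes lack them, as 11.5% of all gene symbols had H3K27me3 and 15.9% had Suz12 in either culture.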
